A study of Mus musculus with 5 samples.

Results

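Ell2 encodes a transcription elongation factor and was 1 of 8251 genes that the array's annotation names alone for a probe set. It was represented by 3 of the 12488 probe sets in the deposited table, chosen because that annotation names Ell2 for each of them: 103891_i_at, 103892_r_at and 97704_at. The first pair was designed to the same expressed sequence tag and differs in suffix. The maker uses _i for a set with fewer unique probes than the design asks for and _r for a set picked after some selection rules were dropped. 97704_at was designed to another tag. The place of the probes within the transcript is not known here, so each probe set was described on its own.

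Polyadenylated RNA of 5 cell cultures was hybridised, 1 array each. The AxJ line, a mouse plasma cell line, was stably transfected with empty vector (1 array), to overexpress hnRNP-H (1 array) or to overexpress hnRNP-F (2 arrays). The hnRNP-F arrays are of B5 and D6, each 1 stable subclone picked for high protein on western blots, and the hnRNP-H line was picked likewise. Empty vector and hnRNP-H served as controls of the hnRNP-F clones, in which the submitters found less secreted relative to membrane heavy chain message. A20, labelled as a memory B cell line, was the fifth culture. All 5 cultures were grown with 5% fetal calf serum. The AxJ cultures also had 1 mg/ml of the selecting drug G418, which the A20 protocol does not name. Line, transfection and drug therefore cannot be told apart in comparisons with A20.

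ELL2 belongs to the ELL family, which raises the rate at which RNA polymerase II elongates by limiting its pausing. It joins the super elongation complex, in which AFF scaffolds bring it together with P-TEFb, the kinase CDK9 with its cyclin T, and with an ENL or AF9 reader protein. In plasma cells ELL2 is known for acting at the immunoglobulin heavy chain gene, where the upstream poly(A) site gives the secreted form and splicing to the membrane exons gives the membrane form. The study's title places it in that choice.

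The RefSeq sequence before the start of the gene is shown because Ell2 is the one gene whose transcript level all values here concern. It is the 250 bases before the start on the + strand (GRCm38.p6, chr13:75707234-75707483), matched by gene symbol, since the deposited table names no genome build. Capitals mark motif matches. The motifs searched on both strands were the CCAAT box, the GC box with the letters GGGCGG, the cyclic AMP response element with the letters TGACGTCA and the TATA box with the letters TATAAA. No match overlaps another. The arrays hold no measurement of this window, so the matches describe letters and no binding.

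Ell2 promoter: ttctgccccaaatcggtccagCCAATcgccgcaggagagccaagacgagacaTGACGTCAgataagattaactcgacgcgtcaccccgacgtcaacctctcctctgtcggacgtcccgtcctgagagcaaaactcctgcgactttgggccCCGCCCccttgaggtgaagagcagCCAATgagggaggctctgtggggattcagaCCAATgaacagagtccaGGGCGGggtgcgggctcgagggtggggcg

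The CCAAT box, bound by NF-Y, occurred 3 times, at bases 229 to 225, 76 to 72 and 46 to 42 before the start. At least 3 matches were held by 2.79% of 32851 RefSeq promoter windows of this length, and at least 1 by 33.8%. The cyclic AMP response element, bound by CREB and ATF proteins, occurred once at bases 198 to 191, as in 1.55% of windows. The GC box occurred at bases 100 to 95 and 29 to 24 and was present in 32.7% of windows. The TATA box letters were not in this window and was present in 12.4% of windows. The GC content was 61.2%, against a median of 52.4%.

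Median deposited intensities of the arrays lay between 33.9 in A20 and 41.7 in empty vector. Signal at the 5' end of Gapdh over that at its 3' end, which falls with RNA breakage or short labelling, was low in empty vector (0.212) and B5 (0.181), middle in A20 (0.384) and high in D6 (0.683) and hnRNP-H (0.866). The labelled cell types could be read from markers. Of 8 plasma cell markers all exceeded 21.8, the intensity used as a filter on low values, on each AxJ array, and 5 did in A20. The summed intensity of these markers was 7551 to 9093 in AxJ and 2670 in A20. The sum over 9 measured B cell markers was 624 to 948 in AxJ and 5041 in A20. T cell, myeloid, stromal and erythroid markers summed to between 44.8 and 568 on any array.

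103891_i_at, the brightest Ell2 probe set, had a deposited intensity of 3865 with empty vector, 2096 with hnRNP-H, 1942 in clone B5, 2068 in clone D6 and 993 in A20. Empty vector stood highest and A20 lowest, and the hnRNP-H and hnRNP-F arrays lay together between them. On the empty vector array 1.17% of 12422 probe sets were brighter, and in A20 4.69% were. From lowest to highest array the intensity rose 3.89-fold, and 16.7% of the 9204 probe sets kept had a wider range over the 5 arrays on the log2 scale. A probe set was kept where its highest intensity exceeded the filter, and all 3 Ell2 probe sets were. Shares of the probe sets kept, here and below, were not matched for intensity.

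103892_r_at read 774 with empty vector, 297 with hnRNP-H, 138 in clone B5, 232 in clone D6 and 130 in A20. The arrays came in the same order as for 103891_i_at, but B5 lay close to A20 rather than to D6. The share of brighter probe sets went from 5.88% in empty vector to 29.1% in A20. Its range was 5.98-fold, and 5.87% of the probe sets kept had a wider one.

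97704_at was dim, at 69.3 with empty vector, 66.7 with hnRNP-H, 79.7 in clone B5, 48.0 in clone D6 and 17.4 in A20. Here B5 was highest, empty vector came second and A20 was again lowest, under the filter of 21.8. The 2 controls lay within 1.04-fold of each other, nearer than the 2 hnRNP-F clones, which differed 1.66-fold. Detection calls were not used here, so whether 17.4 is above background is not known.

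**Figure D1:**
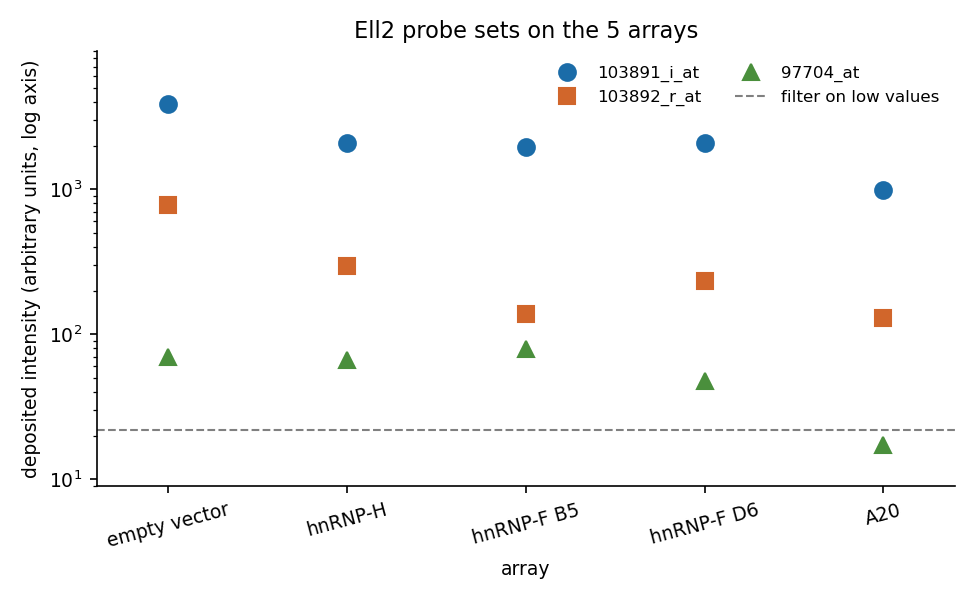
Deposited intensity of each Ell2 probe set (log axis, arbitrary units) on each of the 5 arrays, 1 point per array and no replicates, with the filter on low values at 21.8 as a dashed line. All 3 probe sets were lowest in A20. 103891_i_at and 103892_r_at were highest in empty vector, and 97704_at in B5.

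In A20 each Ell2 probe set lay below all 4 AxJ arrays, as did 33.7% of the probe sets kept. Empty vector was highest of the 5 arrays and A20 lowest for 103891_i_at and 103892_r_at, a pattern held by 12.4%. The probe sets therefore shared the position of A20, and differed in how the AxJ arrays were ordered above it. By the root mean square distance over the 5 arrays between profiles of log2(intensity + 6.53), each centred on its mean, 103892_r_at lay 0.47 from 103891_i_at and 97704_at lay 0.41 from it. Nearer to 103891_i_at than these were 1701 and 1095 of the 9204 probe sets kept. Of 14 pairs of kept probe sets on the array with the suffixes _i and _r and a common target, Ell2 included, 7 lay farther apart than the Ell2 pair, and the median distance was 0.51.

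The 5 genes whose probe sets lay nearest to the profile of 103891_i_at over the 5 arrays were Oxnad1 (distance 0.07), Pcyt1a (0.08), Asns (0.08), Kdelr2 (0.10) and Bphl (0.11). Pcyt1a encodes the regulated enzyme of phosphatidylcholine synthesis, Asns asparagine synthetase, and Kdelr2 a receptor that returns proteins to the endoplasmic reticulum. The intensity of Asns was 280 with empty vector, 162 with hnRNP-H, 155 in clone B5, 176 in clone D6 and 75.2 in A20. Kdelr2 exceeded the filter of 21.8 only with empty vector (33.2), and Oxnad1 and Bphl lay under it in A20 (12.7 and 12.5). The pseudocount therefore bears on the profiles of Kdelr2, Oxnad1 and Bphl. With 9204 profiles and 5 arrays close neighbours are many, and after quantile normalisation only 2 of these 5, Oxnad1 and Asns, were among the nearest 5.

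The comparison of the hnRNP-F clones with the AxJ controls asked whether Ell2 RNA differs where the secreted form is less favoured. No Ell2 probe set passed. Of all probe sets kept, 0.0109% (1, the ribosomal protein gene Rpl41) passed at an adjusted p under 0.05 with limma. The clones had a mean intensity of 2005 ± 89.3 (SD, n = 2) for 103891_i_at against 2980 ± 1251 (SD, n = 2) in the controls. Both clones lay below both controls, as for 18.9% of the probe sets kept, but D6 and hnRNP-H were only 1.01-fold apart. The log2 difference was -0.50 (SE 0.34, 95% interval -1.26 to 0.26, limma adjusted p = 0.848).

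For 103892_r_at the clones had a mean of 185 ± 66.7 (SD, n = 2) against 536 ± 338 (SD, n = 2), and again both clones lay below both controls. The log2 difference was -1.39 (SE 0.44, 95% interval -2.35 to -0.43, unadjusted p = 0.00895, limma adjusted p = 0.836). By unadjusted p it ranked 82 of 9204. For 97704_at the clones and controls overlapped, with means of 63.9 ± 22.4 and 68.0 ± 1.88 (SD, n = 2 each) and a log2 difference of -0.12 (SE 0.40, 95% interval -1.01 to 0.77, limma adjusted p = 0.975), which turned to 0.21 without D6. The intervals allow a fall of more than 2-fold in each of these probe sets, so the data do not show that Ell2 is alike in clones and controls. An exact test of 2 arrays against 2 cannot go below a two-sided p of 0.333.

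Sums over cell type markers differed between the same groups, though no marker passed. The summed intensity of 8 plasma cell markers was 8988 with empty vector, 9093 with hnRNP-H, 7561 in clone B5 and 7551 in clone D6. Of the 8, 6 had a difference below 0 (median -0.26, beside -0.00136 over all probe sets kept). The sum over the measured B cell markers was 624, 730, 778 and 948 in the same order. All 7 tested lay above 0 (median 0.39). Of the 9 measured, only 3 or 4 exceeded the filter of 21.8 on each AxJ array, while 7 did in A20. Several of the tested B cell markers were thus under the filter on the arrays compared here. The 7 tested were the 7 above it in A20, so some may have been tested only through A20. Their count above 0 therefore carries little weight. The part of cell type markers in the Ell2 differences was not tested.

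The size of these differences turned on the control. Without empty vector, which leaves hnRNP-H as the lone control, the log2 difference was -0.06 for 103891_i_at and -0.71 for 103892_r_at. Without hnRNP-H it was -0.95 and -2.07. Adjusted p stayed between 0.121 and 0.957 for 103892_r_at in these fits (limma). With the log2 Gapdh 5' to 3' ratio of each array as a covariate, 103892_r_at passed at -1.44 (limma adjusted p = 0.00187), as did 121 probe sets in all. That fit has 1 residual degree of freedom and took its spread entirely from the trend over all probe sets.

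The arrays with 1 culture each were set against empty vector without a test. In hnRNP-H, 103891_i_at differed from empty vector by -0.88 on the log2 scale, 103892_r_at by -1.36 and 97704_at by -0.05. Of the probe sets kept, 11.1% were at least 2-fold lower in hnRNP-H, as 103892_r_at was. In B5 the log2 differences were -0.99, -2.43 and 0.19, and in D6 -0.90, -1.71 and -0.48. Only 103892_r_at was at least 2-fold lower in these clones, as were 11.9% of the probe sets kept in B5 and 10.0% in D6. As far down as 103892_r_at in B5 were 0.196% of the probe sets kept, and in D6 2.39%. The lower signal of 103891_i_at against empty vector was thus of like size in hnRNP-H and in both hnRNP-F clones, while for 103892_r_at B5 lay below both D6 and hnRNP-H.

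**Figure D2:**
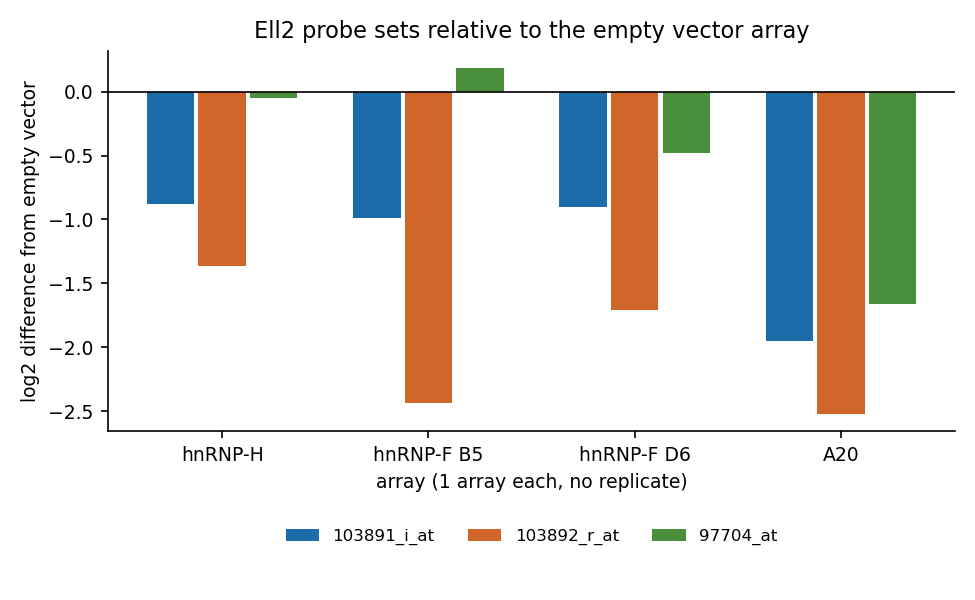
Log2 difference of each array from the empty vector array, on the scale of log2(intensity + 6.53), for the 3 Ell2 probe sets; each bar compares 1 array with 1 array and has no error. 103891_i_at lay at -0.88, -0.99 and -0.90 in the 3 other AxJ arrays, and 97704_at at -0.05, 0.19 and -0.48.

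Arrays of like Gapdh ratio, set side by side, gave different sizes. Between B5 and empty vector, both of low ratio, the log2 differences of the 3 probe sets were -0.99, -2.43 and 0.19, in the order above. Between D6 and hnRNP-H, both of high ratio, they were -0.02, -0.34 and -0.42. Each value compares 1 array with 1 array. The part of RNA integrity in the Ell2 values was not tested beyond these values and the covariate fit.

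Between the 2 hnRNP-F clones, D6 exceeded B5 by 0.09 for 103891_i_at and by 0.72 for 103892_r_at on the log2 scale, and 97704_at was lower in D6, with -0.66. None reached 2-fold, and 5.64% of the probe sets kept were at least 2-fold higher in D6. The direction of the clone difference therefore depended on the probe set.

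A20 against the AxJ controls compares a B cell line with a plasma cell line. Ell2 was lower in A20 by each probe set. In these bulk samples fewer cells with the transcript and less of it per cell cannot be told apart. The log2 difference was -1.51 for 103891_i_at (SE 0.42, 1 array against 2, 95% interval -2.44 to -0.58, limma adjusted p = 0.058). It was -1.84 for 103892_r_at (SE 0.53, limma adjusted p = 0.0662) and -1.64 for 97704_at (SE 0.49, limma adjusted p = 0.0749). None passed 0.05 as deposited, where 3.38% of the probe sets kept passed as lower. The A20 array has no replicate, and its spread was assumed to be that of the AxJ arrays.

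The call for 103891_i_at depended on the scaling. After quantile normalisation the log2 difference was -1.48 and passed (limma adjusted p = 0.048), where 2.99% of 9107 probe sets passed as lower. After median scaling it was -1.29 (limma adjusted p = 0.0954). The median of all probe sets kept lay at -0.14 in this comparison as deposited, at -0.04 after quantile normalisation and at 0.07 after median scaling. Relative to that median, 103891_i_at lay at -1.37, -1.44 and -1.35, so its distance from the median moved little. Its rank by unadjusted limma p moved more, from 703 of 9204 as deposited to 510 of 9107 after quantile normalisation and 922 of 9158 after median scaling. Over all alternatives its adjusted p ran from 5.14e-05 to 0.207. It also passed without hnRNP-H (log2 difference -1.95, adjusted p = 0.0176), and lay at -1.07 without empty vector (adjusted p = 0.121). 103892_r_at passed without hnRNP-H too (-2.52, adjusted p = 0.0176), and 97704_at passed with all 4 AxJ arrays as 1 group (-1.58, adjusted p = 0.0486). With the Gapdh ratio as a covariate all 3 passed, at -1.55, -1.87 and -1.67 (limma adjusted p = 5.14e-05, 2.21e-05 and 0.0123). That fit has 1 residual degree of freedom and took its spread entirely from the trend over all probe sets. Its adjusted p-values, 5.14e-05 among them, are therefore not on a par with those of the other fits. For 97704_at the dimmer side lies under the filter, so the pseudocount sets the size, which ran from -1.20 to -1.91.

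Against the hnRNP-F clones, A20 differed by -1.01 for 103891_i_at (SE 0.42, limma adjusted p = 0.204), by -0.45 for 103892_r_at (SE 0.53, adjusted p = 0.71) and by -1.52 for 97704_at (SE 0.49, adjusted p = 0.101). None passed, where 3.51% of the probe sets kept passed as lower. For 103892_r_at the A20 intensity of 130 lay only 1.07-fold under that of B5, and the log2 difference was -0.81 without B5 and -0.09 without D6.

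**Figure D3:**
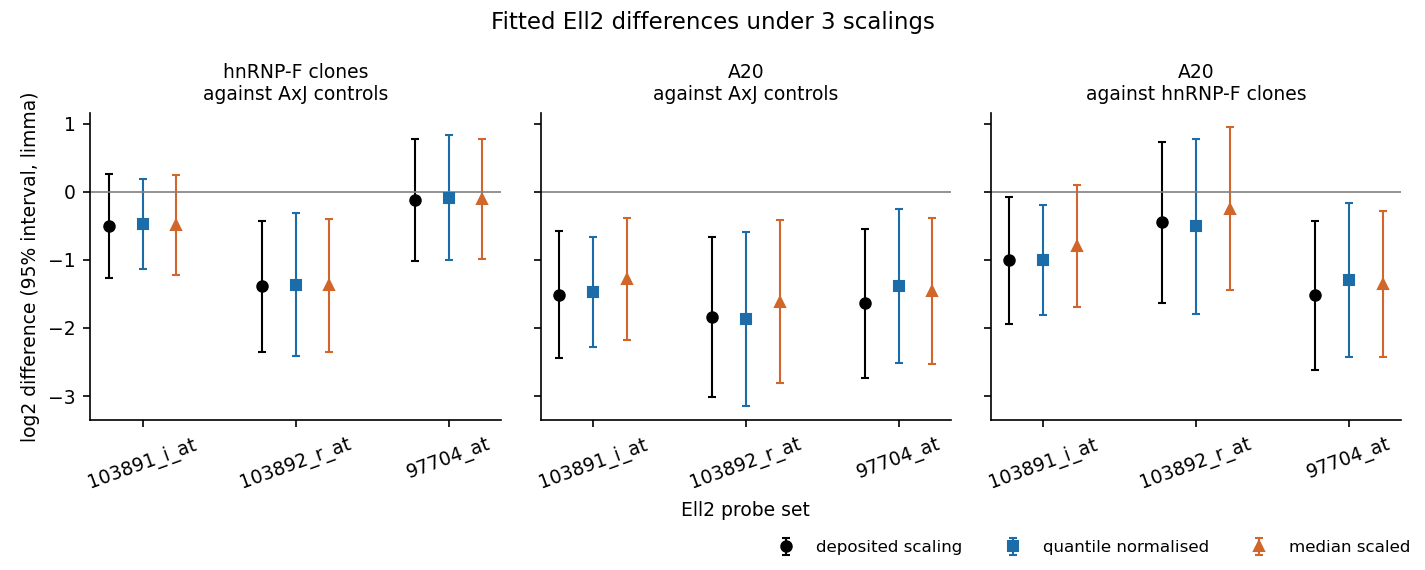
Fitted log2 differences of the 3 Ell2 probe sets in the 3 comparisons, with 95% intervals from limma before any adjustment, under the deposited scaling, quantile normalisation and median scaling. The intervals of A20 against the AxJ controls lay below 0 under each scaling, and those of the hnRNP-F comparison crossed 0 for 103891_i_at and 97704_at.

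Other genes of the Ell2 pathway were read with 1 probe set each, the brightest. Of the ELL family and its partners, Ell and Ice1 were measured beside Ell2. Ell, the founding member, read 162 with empty vector, 128 with hnRNP-H, 128 in clone B5, 107 in clone D6 and 168 in A20. Ice1, a scaffold of the little elongation complex, read 306, 253, 203, 184 and 355 in that order. Both were highest in A20, where Ell2 was lowest, but neither passed (log2 differences from the controls of 0.21 and 0.34, limma adjusted p = 0.821 and 0.656). In the hnRNP-F clones they differed by -0.29 and -0.51 (adjusted p = 0.889 and 0.836).

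Of 7 tested genes of the super elongation complex and P-TEFb, 1 rose in A20 against the controls and none fell, where 3.39% of all probe sets kept rose and 3.38% fell. The median of the list was 0.12, beside -0.14 over all. Mepce, which caps the small nuclear RNA that holds P-TEFb inactive, read 282 with empty vector, 417 with hnRNP-H and 1360 in A20, a rise of 1.97 (SE 0.36, limma adjusted p = 0.00924). It also rose against the hnRNP-F clones, by 1.74 (adjusted p = 0.0176), as did 3.22% of the probe sets kept. A second, dim Mepce probe set differed by 0.90 from the controls. In the hnRNP-F clones none of the 7 passed (median 0.06, beside -0.00136 over all), with Larp7 at -0.50 and Cdk9 at 0.32. Aff4 did not exceed the filter on any array.

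None of 15 pausing and other elongation factors passed in any of the 3 comparisons. Their median was 0.25 in the hnRNP-F clones, with Nelfe, a subunit of the pausing factor NELF, at 0.51 and Ctr9, a subunit of the PAF complex, at 0.73. In A20 against the controls the median was -0.03, with Supt5 of the DSIF complex at 0.92 and Gtf2f1 of TFIIF at 0.76. Against the clones Elob differed by -1.25 and Ctr9 by -0.98.

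Siah1a, Siah1b and Siah2 belong to the family of ubiquitin ligases that mark ELL2 for degradation. They differed in A20 from the controls by -0.07, 0.11 and -0.29, and in the hnRNP-F clones by -0.05, 0.29 and -0.48. None passed (limma adjusted p from 0.788 to 0.96 for A20 and from 0.865 to 0.989 for the clones). The arrays measure RNA, and ELL2 protein was not analysed here.

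The regulators that separate plasma cells from B cells parted in A20 against the controls, where 4 of 8 rose and 2 fell, beside 3.39% and 3.38% of all probe sets kept. Prdm1, which encodes Blimp-1, fell by 3.87 (SE 0.47, limma adjusted p = 0.000719), with 154, 93.7, 95.5 and 107 in the AxJ arrays and 2.14 in A20. Irf4 fell by 1.86 (adjusted p = 0.0266), a call lost after median scaling. Xbp1, the regulator of the secretory programme, differed by -0.77 (adjusted p = 0.433). Bcl6 rose by 6.45, Spib by 5.92, Ebf1 by 3.84 and Pax5 by 2.89. Both controls lay under the filter of 21.8 for Bcl6, Spib and Ebf1 and 1 of them for Pax5, as A20 did for Prdm1. The pseudocount therefore bears on the size of these 5 differences. Bcl6 read 1.57, 6.46, 21.3 and 1.44 on the AxJ arrays and 889 in A20, so it was kept and tested only through A20. Second probe sets existed for Spib, which differed by 1.09, and for Pax5, which did not exceed the filter. In the hnRNP-F clones none of the 8 passed, with Prdm1 at -0.24, Xbp1 at 0.42 and Pax5 at 0.99. The lower Ell2 signal of A20 thus stood beside lower Prdm1 and Irf4, while in the hnRNP-F clones no regulator of this list passed.

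Of 7 genes linked to ELL2 in secretory cells, 2 fell in A20 against the controls and none rose, where 3.38% of all probe sets kept fell and 3.39% rose. All 7 lay below 0, with a median of -1.48 beside -0.14 over all. Hsp90b1 and Hspa5, both chaperones of the endoplasmic reticulum, fell by 3.06 (SE 0.43, adjusted p = 0.00198) and by 2.26 (SE 0.37, adjusted p = 0.00477). Tnfrsf17, the plasma cell receptor BCMA, differed by -1.48 and did not pass (adjusted p = 0.105). In the hnRNP-F clones none passed (median -0.17), with Hsp90b1 at -0.40 and Ddit3 at -0.44.

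Of 13 genes bearing on poly(A) site choice at the heavy chain gene, 1 rose in A20 against the controls, Cpsf4 by 1.93 (SE 0.44, adjusted p = 0.0252), and none fell, where 3.39% of all probe sets kept rose. The median of the list was 0.57, beside -0.14 over all. Cpsf3 passed as well after median scaling. Hnrnpf, Ptbp1 and Cpsf1 had no probe set annotated to them alone, so hnRNP-F RNA itself was not read here. Cstf2, the CstF subunit that binds RNA downstream of the poly(A) site, differed by -0.59 in A20 and by -0.62 in the hnRNP-F clones, and passed in neither. In the clones none passed, with Pcf11 at -1.62 (adjusted p = 0.836) and Hnrnpm at -0.86 (adjusted p = 0.836). Hnrnpm was higher in A20 than in the clones, by 1.80 (adjusted p = 0.0143).

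**Figure D4:**
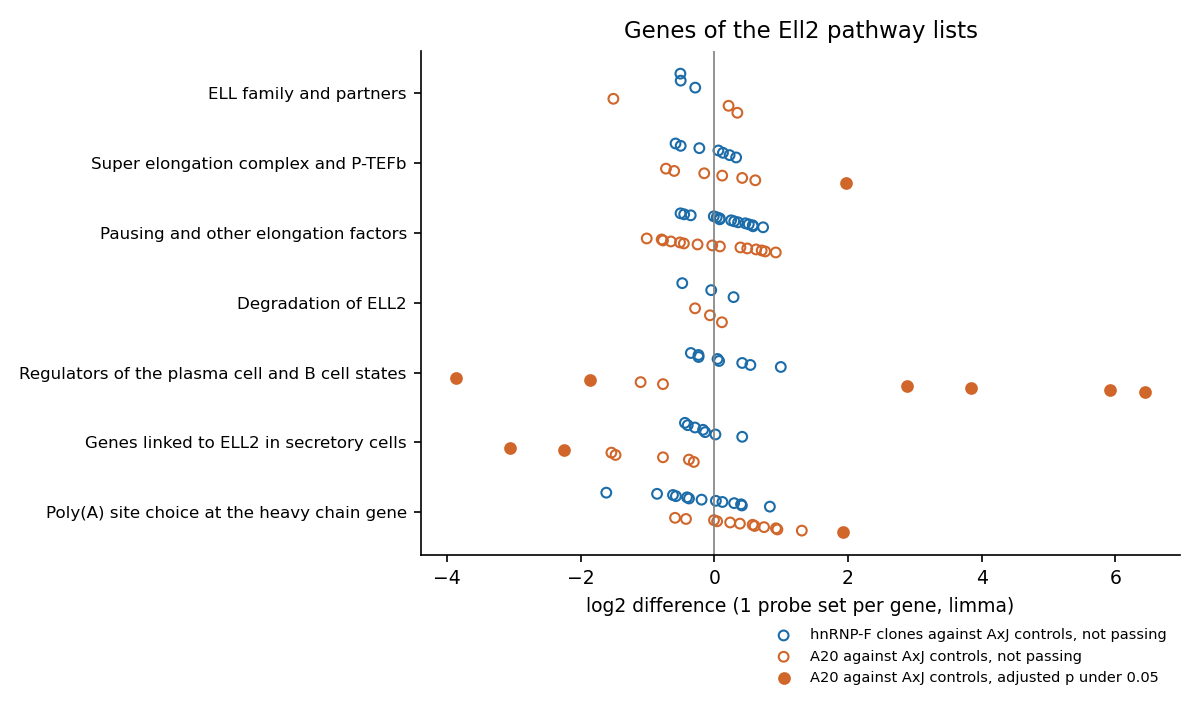
Log2 differences of the tested genes of each list, 1 point per gene, for the hnRNP-F clones (blue) and A20 (orange) against the AxJ controls; filled points passed a limma adjusted p of 0.05. No gene of these lists passed in the hnRNP-F clones, and those past the threshold in A20 include Prdm1, Hsp90b1, Mepce and Cpsf4.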

How the data were processed

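Polyadenylated RNA of 5 cultures was hybridised to 1 Affymetrix array each after biotin labelling, per the labels' protocols. The authors deposited 1 linear intensity for each probe set on every array. Per the deposited values, the authors had scaled each array to a trimmed mean near 150 (2% left out at each end). The software and background step, not given in the sources used here, could shift dim values most.

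Of 12488 probe sets, 66 maker's controls were left out. Symbols came from the array annotation of 2016, matched through gene identifiers to RefSeq: 10833 of the remaining 12422 had 1 symbol, 396 several and 1193 none. Deposited intensities were kept, because the rule for Ell2 asks for them, and log2(intensity + 6.53) was taken, adding the 20th percentile of all values, so that changes of dim probe sets are understated. A highest intensity above 21.8, the 40th percentile, was required, which 9204 probe sets met.

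limma 3.58.1 in R 4.3.3 (lmFit, eBayes with an intensity trend) was fitted to all 5 arrays with 3 coefficients (hnRNP-F clones, AxJ controls, A20), leaving 2 residual degrees of freedom and a prior of 8.71. All p-values are two-sided, Benjamini-Hochberg adjusted over all probe sets kept. No repeated cultures are described. The p-values therefore rest on the spread between empty vector and hnRNP-H and between clones B5 and D6. That spread may be technical, but it also holds any effect of hnRNP-H and any difference between the subclones. The number of arrays limits the precision. On simulated data 200 of 9204 probe sets were changed, by 2, 4, 8 or 32-fold. Noise was drawn as independent and normal with the fitted SDs. For the hnRNP-F comparison 12% of 2-fold and 64% of 4-fold changes were recovered, and 16% and 68% for A20. Of 144 calls in each comparison, 12 and 9 were false. Recovery may be lower where fewer probe sets differ. The hnRNP-F comparison itself gave 1 call, so the simulated shares may be too high for it.

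Ell2, the gene lists and the deposited scaling were chosen with earlier results of these data known. The named genes were every Ell2 probe set, all measured genes of the ELL family and Siah lists and, from each other list, those past the threshold or else the 2 with the largest moderated statistic in each comparison. Some further list genes are named for their role (Xbp1, Tnfrsf17, Cstf2, Prdm1 in the clones, Aff4, Cpsf3), after their values were seen. Alternatives covered scaling, pseudocount, filter, intensity trend, the Gapdh ratio as a covariate, grouping and each AxJ array left out.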

Additional observations from a re-analysis of the deposited data

How the results depend on the processing

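Each Ell2 difference was recomputed under 11 or 12 alternatives, or 4 where there was no test. Of 129 values, with the profile comparison counted, 114 were classed as unchanged. For tested differences this meant the same direction and side of the threshold. Without a test it meant the same direction and a shift under the fitted SD of the probe set. Dropping the filter, the trend or an array outside the comparison cannot move a log2 difference, so those values kept direction by construction. Calls were gained, never lost, since no Ell2 difference passed as deposited. The fit with the Gapdh covariate took its spread entirely from the trend over all probe sets, so its calls are not on a par with the others. With the Gapdh covariate, 103892_r_at passed in the hnRNP-F clones (-1.44), all 3 passed in A20 against the controls (-1.55, -1.87 and -1.67 for 103891_i_at, 103892_r_at and 97704_at), and 103891_i_at (-0.98) and 97704_at (-1.50) passed in A20 against the clones. In A20 against the controls, 103891_i_at also passed after quantile normalisation (-1.48) and 97704_at with all AxJ arrays as 1 group (-1.58). With each AxJ array left out in turn, this comparison ran from -1.95 to -1.07 for 103891_i_at and from -2.52 to -1.16 for 103892_r_at, both passing without hnRNP-H. For 97704_at in the hnRNP-F clones these fits ran from -0.45 to 0.21, the latter without D6. 97704_at in hnRNP-H against empty vector turned to 0.084 after median scaling. Of the 5 nearest profiles, 2 were shared after quantile normalisation and 0 with either other Ell2 probe set as the reference. Counts of probe sets called ran from 0 (no filter, or no intensity trend) to 121 (Gapdh covariate) around 1 in the hnRNP-F comparison, from 154 (no trend) to 1415 (Gapdh covariate) around 623 in A20 against the controls, and from 128 to 1445 around 619 in A20 against the clones, under the same settings. Higher and lower calls in A20 against the controls were 312 and 311 as deposited and 364 and 193 after median scaling. The ELL family list held 1 call in that comparison after quantile normalisation, which is Ell2, and the poly(A) list 2 after median scaling. The 0 calls stood beside 620 and 431 probe sets at an unadjusted p under 0.05. Where 1 array is left on a side, it was assumed to vary like the others. No paired analysis was possible because the labels give the groups no shared replicate numbers. The dimness of 97704_at limits what it shows in A20.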

Other observations

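The probe sets nearest in profile to the 2 dimmer Ell2 probe sets were other genes than those nearest to 103891_i_at. For 103892_r_at they were Ptpro, Cd55, Tgfb2, Cpeb2 and Uqcrb, at root mean square distances from 0.14 to 0.25 on the log2 scale. Ptpro, Cd55 and Tgfb2 exceeded the filter of 21.8 only with empty vector (44.0, 24.1 and 39.3), so the pseudocount bears on their profiles. Uqcrb, a subunit of respiratory complex III, read 2358 with empty vector, 882 with hnRNP-H, 474 in clone B5, 911 in clone D6 and 304 in A20. For 97704_at they were Maoa, Acvr2b, Selenof, Spats2 and Tmem129, at distances from 0.07 to 0.13. Maoa was dim, with 26.9 in B5 as its highest value. Selenof, a selenoprotein of the endoplasmic reticulum, read 3417 with empty vector, 3624 with hnRNP-H, 4179 in clone B5, 3109 in clone D6 and 1255 in A20. Its lowest array was A20 and its highest B5, like those of 97704_at.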
